A study of Homo sapiens with 24 samples.

Results

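The NADPH oxidase genes CYBB, CYBA, NCF1, NCF4, RAC1, RAC2 and VAV1 and the calprotectin genes S100A8 and S100A9 are described here in THP1 macrophages with a CD33 knockout, a PTPN6 knockdown or both. The 9 genes were taken from a matrix of 60617 gene identifiers as the rows whose Ensembl identifier carries one of these symbols. Each symbol matched 1 identifier. The symbols themselves were chosen with earlier results of these data known. Enough reads for testing were present for 8 of the 9, and NCF1 fell below the filter on low counts.

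The phagocyte NADPH oxidase passes electrons from NADPH across the membrane to oxygen and so makes superoxide, the start of the oxidative burst of macrophages and neutrophils. Its catalytic core is a membrane pair of CYBB (gp91phox) and CYBA (p22phox), which cytosolic subunits, among them those encoded by NCF1 and NCF4, join on activation, together with a GTP-bound Rac protein loaded by exchange factors such as VAV1. S100A8 and S100A9 are small calcium-binding proteins of monocytes and neutrophils that pair as calprotectin, are known to deliver arachidonic acid to the oxidase, and act outside the cell through receptors such as TLR4.

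THP1 is a human monocytic leukaemia line, here turned into adherent macrophages with the phorbol ester PMA (10 ng/ml for 48 hours, then 48 hours without it). CD33 is a sialic-acid-binding receptor that dampens activation, and PTPN6 codes for the phosphatase SHP-1, which works downstream of receptors of this kind. The study has 4 groups. CD33KO_shPTPN6 cells carried the CD33 knockout and a pLKO.1 vector with a hairpin against PTPN6 (5 libraries), CD33KO_shCTRL cells the knockout and the empty vector (6), WT_shPTPN6 cells the hairpin in wild type (6), and WT_shCTRL cells the empty vector in wild type (6). All groups met lentivirus made in HEK-293FT cells, were selected with puromycin and were differentiated with PMA. The labels do not say whether the knockout line is 1 clone or whether replicates were separate cultures, so p-values measure only the spread between these libraries. The study's title concerns phagocytosis, oxidative burst and inflammation after CD33 loss. The files hold transcript counts, not oxidase activity.

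Each read marks a transcript's 3′ end, so a level in CPM (the count relative to library size, with TMM factors between libraries) needs no division by gene length. Totals per library were 2024032 to 2581042 in CD33KO_shPTPN6, 2048161 to 3749258 in CD33KO_shCTRL, 3318001 to 6269304 in WT_shPTPN6 and 4170191 to 5700712 in WT_shCTRL. PTPN6 averaged 7.41 ± 2.75, 37.7 ± 3.88, 10.6 ± 1.45 and 44.6 ± 6.24 CPM in the same order (SD), and was lower with the hairpin in both lines. CD33 averaged 23.5 ± 4.86, 20.2 ± 2.45, 88.8 ± 5.33 and 45.4 ± 3.24 CPM. CD33 transcripts were thus lower in the knockout but not absent. The site of the edit is not given here, and 3′ counts by themselves do not check a knockout. The summed level of 10 macrophage and monocyte markers was 2489.3 to 2721.5 CPM in CD33KO_shPTPN6, 1121.4 to 1350.7 in CD33KO_shCTRL, 3387.1 to 3546.7 in WT_shPTPN6 and 1666.9 to 1977.1 in WT_shCTRL. CD14, CSF1R and TYROBP, which mark monocytes and macrophages, averaged at least 124.0 CPM in every group, while MRC1 reached at most 1.35 CPM in any library. LYZ, the monocyte lysozyme, averaged 5.66 CPM in CD33KO_shPTPN6, 3.49 in CD33KO_shCTRL, 226.8 in WT_shPTPN6 and 26.1 in WT_shCTRL. CD163 averaged 2.42, 2.41, 89.8 and 23 CPM in the same order, and FCGR1A 0.464, 0.473, 14.8 and 10.6 CPM. The other markers of the list, AIF1, CD68 and ITGAM, averaged at least 36.2 CPM in every group.

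Large shares of the tested genes differed between these groups, and calls among the 8 tested genes have to be read against that background. A call means a Benjamini-Hochberg adjusted p under 0.05 over all 13098 tested genes in edgeR's quasi-likelihood test. In CD33KO_shCTRL against WT_shCTRL, 7 of the 8 were called, 3 higher and 4 lower, where 56.7% of all tested genes were called, 28.3% higher and 28.4% lower. In WT_shPTPN6 against WT_shCTRL all 8 were called, 7 higher and 1 lower, where 60.6% of all genes were called, 30.2% higher and 30.4% lower. In CD33KO_shPTPN6 against CD33KO_shCTRL 6 were called, all higher, where 42.1% of all genes were called, 20.5% higher and 21.6% lower. In CD33KO_shPTPN6 against WT_shCTRL 7 were called, 5 higher and 2 lower, where 63.8% of all genes were called, 32.1% higher and 31.7% lower.

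The libraries of both groups did not overlap for 6, 7, 5 and 6 of the 8 genes in these comparisons, where they did not overlap for 34.1%, 37.4%, 24.2% and 45.7% of all tested genes. These comparisons share libraries, so their counts are not independent. The median log2 fold change of the 8 was -0.11, 0.54, 0.42 and 0.41 in those 4 comparisons, where the median of all genes lay within 0.01 of 0. Scaling by library totals alone moved the all-gene median of CD33KO_shPTPN6 against WT_shCTRL to -0.14, the only shift beyond 0.1.

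**Figure D1:**
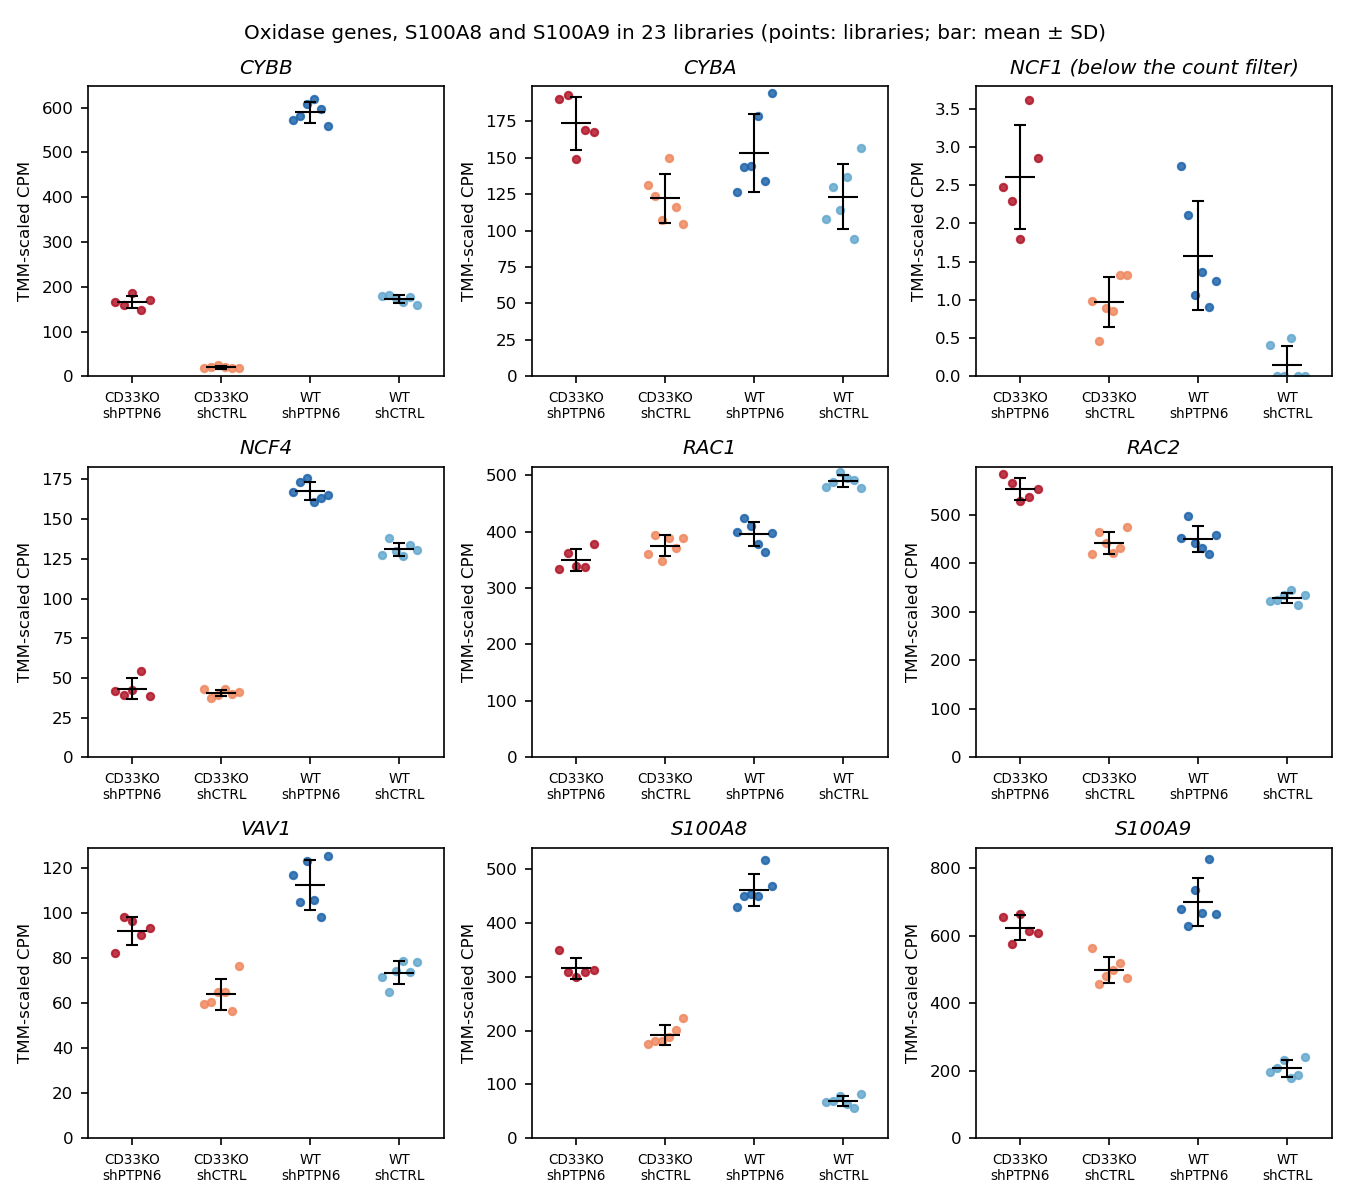
TMM-scaled CPM of the 9 genes in 23 libraries (y axis, linear and from 0, scales differ between panels) by group (x axis); points are libraries and bars the mean ± SD (n = 5 for CD33KO_shPTPN6, 6 for the others). CYBB spans 20.2 CPM on average in CD33KO_shCTRL and 589.1 CPM in WT_shPTPN6, S100A8 and S100A9 are lowest in WT_shCTRL, and NCF4 separates by CD33 genotype.

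CYBB, the electron-carrying catalytic subunit, had the largest fold between its highest and lowest group mean among the 8 tested genes. It stood at 166.0, 158.6, 186.3, 147.9 and 169.3 CPM in CD33KO_shPTPN6, and at 19.1, 20.6, 26.1, 20.1, 17.6 and 17.6 CPM in CD33KO_shCTRL. In wild-type cells it stood at 573.3, 580.5, 608.5, 618.1, 596.4 and 557.9 CPM in WT_shPTPN6 and at 179.2, 180.5, 175.8, 166.1, 176.9 and 159.6 CPM in WT_shCTRL. CD33KO_shCTRL lay far below every other group, WT_shPTPN6 far above, and CD33KO_shPTPN6 overlapped with WT_shCTRL. Without the hairpin, CYBB fell by 3.11 (SE 0.077) on the log2 scale in the knockout, 8.66-fold (adjusted p = 2.12e-63). The hairpin raised it by 1.77 (SE 0.048) in wild type, 3.4-fold (adjusted p = 3.79e-59). In the knockout the hairpin raised it by 3.05 (SE 0.084), 8.3-fold (adjusted p = 1.34e-57), which ranked 13 by size among 10909 genes averaging at least 5 CPM. CD33KO_shPTPN6 differed from WT_shCTRL by -0.061, with a 95% interval of -0.17 to 0.053 (adjusted p = 0.36). That interval leaves room for only a small difference under TMM scaling, but library totals alone gave -0.21 (adjusted p = 0.000985). The counts behind the lowest group were 39 to 66 reads a library. The knockout libraries were the shallower ones on average, and with every library thinned to the smallest total, an alternative chosen after the data were seen, CYBB in CD33KO_shCTRL against WT_shCTRL still gave -3.10. CYBB lies at chrX:37780011-37813461 (GRCh38, plus strand) within the span of AF241726.2, which shares no exon with it and had 0 counts in all 23 libraries.

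The 300 bases around the RefSeq start of CYBB (GRCh38.p14, chrX:37779809-37780108, plus strand, 250 bases before the start and 50 from it on) are shown because CYBB had the largest fold change of the 8 tested genes in CD33KO_shCTRL against WT_shCTRL and in CD33KO_shPTPN6 against CD33KO_shCTRL. Capitals mark the core letters bound by PU.1, GAGGAA, here on the opposite strand 48 bases before the start.
CYBB: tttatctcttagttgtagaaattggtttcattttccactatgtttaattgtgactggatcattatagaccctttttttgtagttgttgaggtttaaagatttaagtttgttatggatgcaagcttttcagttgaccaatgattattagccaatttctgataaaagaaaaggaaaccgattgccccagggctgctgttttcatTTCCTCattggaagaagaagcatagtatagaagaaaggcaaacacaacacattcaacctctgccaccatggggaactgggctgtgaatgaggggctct
The window also holds letters of the interferon-stimulated response element (GAAA, any 2 bases, then GAAA) 225 and 86 bases before the start. Over 35114 RefSeq windows of the same length, searched on both strands, 27.9% hold GAGGAA and 3.57% hold those of the response element. Of the 6 described genes in that table (CYBB, CYBA, NCF1, VAV1, S100A8, S100A9), 5 hold GAGGAA (all but CYBA) and 2, CYBB and NCF1, hold the response element letters. RAC1, RAC2 and NCF4 are not in it. Letters matched in a window describe the sequence and show no binding.

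CYBA, the stabilising partner of CYBB, varied far less than CYBB, with group means of 122.2 to 173.9 CPM. It ranged from 149.0 to 192.9 CPM in CD33KO_shPTPN6, 104.3 to 149.8 in CD33KO_shCTRL, 126.2 to 194.3 in WT_shPTPN6 and 94.2 to 156.8 in WT_shCTRL. The groups overlapped in all 6 pairwise comparisons. CYBA was higher in CD33KO_shPTPN6 than in CD33KO_shCTRL by 0.51 (SE 0.15, adjusted p = 0.00762) and higher than in WT_shCTRL by 0.50 (SE 0.14, adjusted p = 0.00326). It differed by -0.012 between CD33KO_shCTRL and WT_shCTRL (interval -0.29 to 0.27, adjusted p = 0.947). The rise in WT_shPTPN6 over WT_shCTRL, 0.32 (SE 0.12, adjusted p = 0.0316), missed the threshold with library totals alone (0.104), a stricter filter (0.0518) or these 2 groups alone (0.0808). It also missed it without WT_shPTPN6 replicate 4 (0.064) or 6 (0.0795), or without WT_shCTRL replicate 1 (0.0589), 3 (0.0515) or 5 (0.0708).

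The ratio of CYBB to CYBA counts within a library, which no scaling between libraries can change, followed CYBB. It averaged 0.965 ± 0.174 in CD33KO_shPTPN6 (SD, n = 5), 0.168 ± 0.0388 in CD33KO_shCTRL, 3.93 ± 0.644 in WT_shPTPN6 and 1.45 ± 0.31 in WT_shCTRL (n = 6 each). The log2 ratio was 2.52 higher in CD33KO_shPTPN6 than in CD33KO_shCTRL (SE 0.16, two-sided exact permutation test, p adjusted over 18 ratio tests = 0.00557). It fell by 3.09 in CD33KO_shCTRL against WT_shCTRL and was 1.45 higher in WT_shPTPN6 than in WT_shCTRL (exact permutation, adjusted p = 0.00557 for each). Unlike CYBB itself, the ratio was lower in CD33KO_shPTPN6 than in WT_shCTRL (log2 difference -0.57, SE 0.17, exact permutation, adjusted p = 0.0195). The smallest unadjusted p such tests allow is 0.00216 for 6 against 6 libraries and 0.00433 for 5 against 6.

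**Figure D2:**
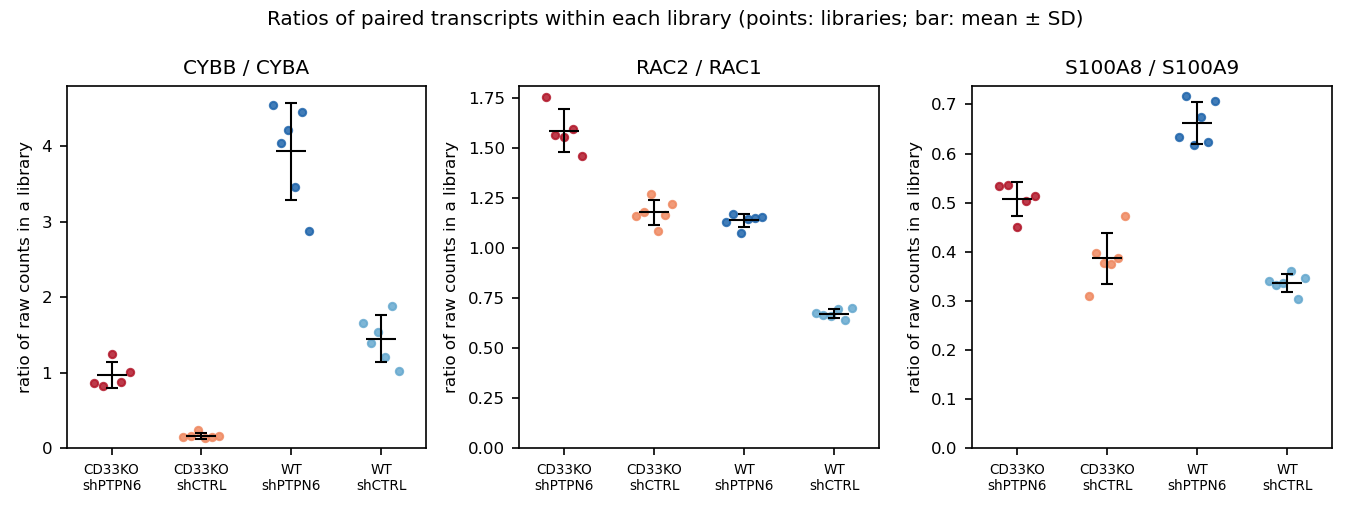
Ratio of raw counts within a library (y axis, linear and from 0) for CYBB over CYBA, RAC2 over RAC1 and S100A8 over S100A9 by group (x axis); points are libraries and bars the mean ± SD. CYBB over CYBA is near 0.168 in CD33KO_shCTRL, RAC2 exceeds RAC1 in 3 groups but not in WT_shCTRL, and S100A8 stays below S100A9 in every library.

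NCF4 encodes p40phox, the cytosolic subunit that binds phosphoinositides of the phagosome membrane, and its level followed CD33 genotype. It stood at 42.0, 39.3, 42.2, 54.6 and 38.4 CPM in CD33KO_shPTPN6 and at 43.0, 37.6, 39.1, 42.8, 39.6 and 40.9 CPM in CD33KO_shCTRL. It stood at 167.3, 173.1, 175.9, 161.1, 163.3 and 165.4 CPM in WT_shPTPN6 and at 127.7, 137.9, 130.2, 126.5, 133.7 and 130.3 CPM in WT_shCTRL. All knockout libraries lay below all wild-type libraries, and the knockout groups overlapped. NCF4 fell by 1.69 (SE 0.07) on the log2 scale in CD33KO_shCTRL against WT_shCTRL, 3.24-fold (adjusted p = 6.46e-43), and by 1.96 (SE 0.075) in CD33KO_shPTPN6 against WT_shPTPN6 (adjusted p = 1.08e-45). The hairpin raised it by 0.36 (SE 0.053) in wild type (adjusted p = 4.81e-09). In the knockout the hairpin gave 0.089, with an interval of -0.098 to 0.28 (adjusted p = 0.475). NCF4 overlaps exons of NCF4-AS1 on the opposite strand, which had 0 counts in all 23 libraries.

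NCF1, which encodes p47phox, the organiser that is phosphorylated on activation, was counted 28 times in all CD33KO_shPTPN6 libraries, 15 in CD33KO_shCTRL, 43 in WT_shPTPN6 and 5 in WT_shCTRL. It was the member that missed the filter, at 2.6, 0.974, 1.57 and 0.152 CPM on average. NCF1 lies at chr7:74773962-74789315 beside 2 near-identical pseudogenes, NCF1B and NCF1C. Over the last 300 bases of the 1396-base NCF1 transcript, where 3′ reads fall, NCF1B matches it at every base, and NCF1C differs by 1 substitution, T1298C (positions from the transcript's 5′ end, NCF1 base first). A read confined to these 300 bases thus cannot be assigned to NCF1 rather than NCF1B. The final 98 bases are identical in all 3, so a read confined to them cannot be assigned to any 1 copy. The split between the rows is uncertain.

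The NCF1C row held far more counts than NCF1, 1724, 979, 2239 and 373 in the same order. NCF1C stood at 159.0, 164.1, 160.2, 154.6 and 157.8 CPM in CD33KO_shPTPN6 and at 54.8, 73.3, 56.7, 71.5, 65.7 and 73.5 CPM in CD33KO_shCTRL. It stood at 91.7, 78.9, 88.7, 87.4, 57.7 and 98.1 CPM in WT_shPTPN6 and at 9.81, 14.2, 11.6, 12.5, 9.83 and 17.5 CPM in WT_shCTRL. The order of groups was the same for NCF1, NCF1B and NCF1C, with CD33KO_shPTPN6 highest and WT_shCTRL lowest, while CYBB and NCF4 were highest in WT_shPTPN6. NCF1C was higher than in WT_shCTRL by 3.68 (SE 0.11) in CD33KO_shPTPN6, by 2.41 (SE 0.12) in CD33KO_shCTRL and by 2.77 (SE 0.11) in WT_shPTPN6 (largest adjusted p of the 3 = 6.51e-22). Summing the 3 copies gave 3.69, 2.42 and 2.79. In the fit of all genes without a filter, the NCF1 row gave 3.69 (SE 0.64, adjusted p = 7.22e-08), 2.34 (SE 0.72, adjusted p = 0.00628) and 3.08 (SE 0.60, adjusted p = 2.71e-06). These sizes rest on 5 reads over all WT_shCTRL libraries. The difference between the knockout groups was 1.35 (SE 0.55, adjusted p = 0.0886).

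**Figure D3:**
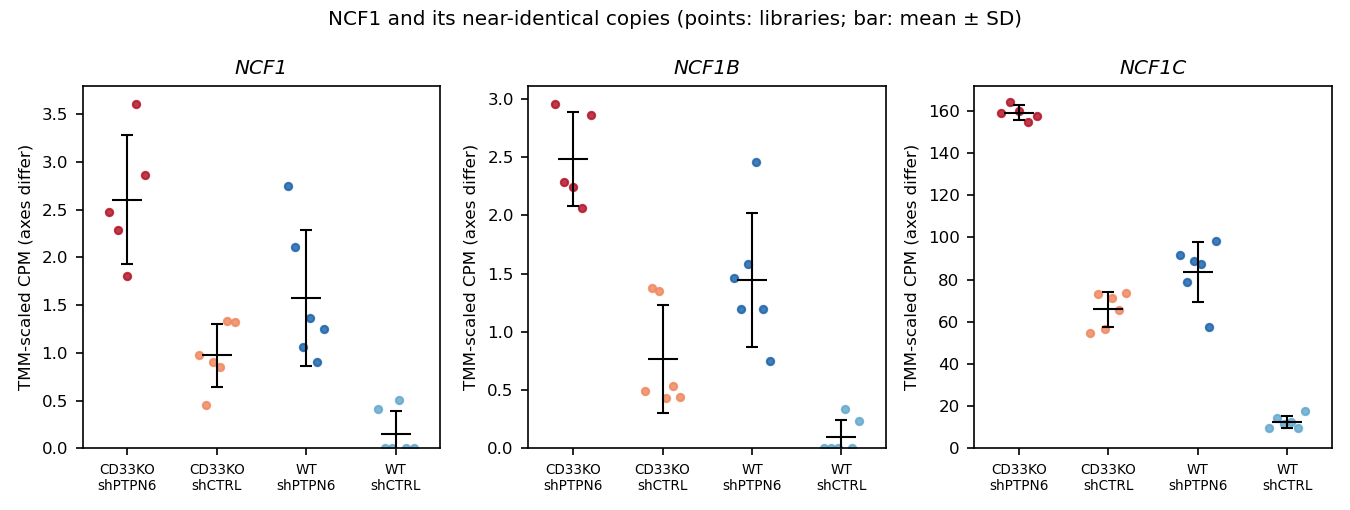
TMM-scaled CPM of NCF1 and its near-identical copies NCF1B and NCF1C (y axis, linear and from 0, scales differ) by group (x axis); points are libraries and bars the mean ± SD. All 3 are highest in CD33KO_shPTPN6 and lowest in WT_shCTRL, and NCF1C averages 159.2 CPM where NCF1 averages 2.6 CPM.

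RAC1 and RAC2 encode the Rac GTPases, RAC1 present in most cells and RAC2 largely in blood cells, and they moved in opposite directions. RAC1 ranged from 333.4 to 378.7 CPM in CD33KO_shPTPN6, 347.2 to 393.3 in CD33KO_shCTRL, 364.2 to 424.2 in WT_shPTPN6 and 477.7 to 505.7 in WT_shCTRL. RAC2 ranged from 527.8 to 584.8 CPM in CD33KO_shPTPN6, 418.5 to 474.0 in CD33KO_shCTRL, 419.8 to 497.4 in WT_shPTPN6 and 314.7 to 344.1 in WT_shCTRL. WT_shCTRL was the highest of the groups in RAC1 and the lowest in RAC2, with no overlap in either. Against WT_shCTRL, RAC1 fell by 0.48 (SE 0.049) in CD33KO_shPTPN6, by 0.39 (SE 0.046) in CD33KO_shCTRL and by 0.31 (SE 0.044) in WT_shPTPN6, with adjusted p no larger than 1.86e-09. RAC2 rose by 0.75 (SE 0.048), 0.42 (SE 0.046) and 0.45 (SE 0.045) in the same groups, with adjusted p no larger than 3.9e-14. These directions held under every scaling tried.

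Read as a ratio within a library, RAC2 over RAC1 averaged 1.59 ± 0.107 in CD33KO_shPTPN6 (SD, n = 5), 1.18 ± 0.0628 in CD33KO_shCTRL, 1.14 ± 0.033 in WT_shPTPN6 and 0.672 ± 0.022 in WT_shCTRL (n = 6 each). The 3 other groups lay above WT_shCTRL without overlap (exact permutation, adjusted p = 0.00557 for each), and CD33KO_shPTPN6 lay above both single groups (exact permutation, adjusted p = 0.00557 for each). The single groups differed by 0.05 on the log2 scale (exact permutation, adjusted p = 0.188), which became 0.074 without CD33KO_shCTRL replicate 4 (exact permutation, adjusted p = 0.0229).

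VAV1, a blood-cell exchange factor that loads Rac with GTP, rose with the hairpin in both lines. It ranged from 82.5 to 98.3 CPM in CD33KO_shPTPN6, 56.4 to 76.6 in CD33KO_shCTRL, 98.3 to 125.5 in WT_shPTPN6 and 65 to 78.6 in WT_shCTRL. The shPTPN6 libraries lay above all shCTRL libraries of either line. The rise was 0.54 (SE 0.082) in the knockout (adjusted p = 2.39e-08) and 0.62 (SE 0.063) in wild type (adjusted p = 1.74e-15). With the empty vector VAV1 fell by 0.21 (SE 0.074) in the knockout (adjusted p = 0.00919). With libraries thinned to the smallest total that difference was -0.1 (adjusted p = 0.333).

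S100A8 and S100A9 both had their lowest mean in WT_shCTRL and their highest in WT_shPTPN6. S100A8 stood at 350.7, 309.0, 298.9, 308.2 and 312.0 CPM in CD33KO_shPTPN6 and at 175.0, 181.1, 180.8, 187.5, 201.0 and 224.0 CPM in CD33KO_shCTRL. It stood at 430.0, 450.4, 453.6, 450.7, 516.4 and 469.7 CPM in WT_shPTPN6 and at 66.6, 69.5, 78.4, 64.3, 56.7 and 83.0 CPM in WT_shCTRL. No 2 groups overlapped for S100A8. S100A9 stood at 655.9, 575.4, 664.7, 612.9 and 607.3 CPM in CD33KO_shPTPN6 and at 564.1, 456.5, 479.9, 499.5, 520.2 and 474.0 CPM in CD33KO_shCTRL. It stood at 679.3, 628.4, 735.1, 668.6, 827.3 and 664.3 CPM in WT_shPTPN6 and at 195.3, 209.5, 233.0, 178.0, 186.1 and 239.5 CPM in WT_shCTRL. For S100A9, CD33KO_shPTPN6 overlapped with WT_shPTPN6, and the other groups were apart.

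Against WT_shCTRL, S100A8 rose by 2.19 (SE 0.066), 4.55-fold, in CD33KO_shPTPN6 (adjusted p = 3.05e-41), by 1.47 (SE 0.066) in CD33KO_shCTRL (adjusted p = 4.04e-31) and by 2.73 (SE 0.061), 6.65-fold, in WT_shPTPN6 (adjusted p = 3.36e-49). S100A9 rose by 1.59 (SE 0.074), 3.02-fold, in CD33KO_shPTPN6 (adjusted p = 6.45e-18), by 1.27 (SE 0.071) in CD33KO_shCTRL (adjusted p = 9.28e-16) and by 1.76 (SE 0.07), 3.39-fold, in WT_shPTPN6 (adjusted p = 1.28e-19). Within the knockout the hairpin raised S100A8 by 0.72 (SE 0.064, adjusted p = 1.66e-15) and S100A9 by 0.32 (SE 0.073, adjusted p = 0.000688). Between the hairpin groups S100A8 was lower in the knockout (log2 difference -0.55, SE 0.059, adjusted p = 1.27e-12). For S100A9 that difference was -0.17 (SE 0.071, adjusted p = 0.0452), with 0.116, 0.0888 and 0.093 without CD33KO_shPTPN6 replicates 3, 5 and 6 and 0.0965 without WT_shPTPN6 replicate 5.

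The ratio of S100A8 to S100A9 within a library averaged 0.508 ± 0.0354 in CD33KO_shPTPN6 (SD, n = 5), 0.386 ± 0.0521 in CD33KO_shCTRL, 0.662 ± 0.0435 in WT_shPTPN6 and 0.337 ± 0.0186 in WT_shCTRL (n = 6 each). S100A9 exceeded S100A8 in all 23 libraries. The ratio was higher with the hairpin in both lines, by a log2 difference of 0.40 in the knockout (SE 0.092, exact permutation, adjusted p = 0.0104) and 0.97 in wild type (SE 0.051, exact permutation, adjusted p = 0.00557). Between CD33KO_shCTRL and WT_shCTRL it differed by 0.19 (SE 0.086, exact permutation, adjusted p = 0.0504), and by 0.25 without CD33KO_shCTRL replicate 1 (exact permutation, adjusted p = 0.00599) and 0.21 without WT_shCTRL replicate 4 (exact permutation, adjusted p = 0.0367).

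Windows around the RefSeq starts of S100A8 (GRCh38.p14, chr1:153391024-153391323, minus strand) and S100A9 (chr1:153357604-153357903, plus strand) are printed because both genes were higher than in WT_shCTRL in all 3 other groups. Capitals mark GAGGAA on either strand and TATAAA on the gene's own strand.
S100A8: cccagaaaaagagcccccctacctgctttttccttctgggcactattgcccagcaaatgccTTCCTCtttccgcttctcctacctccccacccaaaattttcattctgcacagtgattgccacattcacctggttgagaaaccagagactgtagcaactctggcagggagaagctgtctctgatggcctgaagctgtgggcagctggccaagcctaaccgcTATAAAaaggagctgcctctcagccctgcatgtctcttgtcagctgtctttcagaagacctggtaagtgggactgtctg
S100A9: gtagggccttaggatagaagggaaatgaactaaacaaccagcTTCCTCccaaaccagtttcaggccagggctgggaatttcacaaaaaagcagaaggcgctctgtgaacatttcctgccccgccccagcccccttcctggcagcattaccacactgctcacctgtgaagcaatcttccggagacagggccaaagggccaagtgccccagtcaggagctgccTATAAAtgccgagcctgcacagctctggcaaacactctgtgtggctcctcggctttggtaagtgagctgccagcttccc
TATAAA lies 29 bases before the start of S100A9, and 7.33% of the 35114 windows hold it somewhere. S100A8 has several RefSeq starts, and the one used was picked for TATAAA in this place, so its match is fixed by that choice and is no observation. Letters of the C/EBP motif, TTNNGNAA, occur in both windows and in CYBA, as in 36.8% of all windows. AP-1 letters TGANTCA (7.71% of windows) and gamma-activated site letters TTCNNNGAA (7.66%) occur in none of the 6 windows. The gene bodies lie 29004 bases apart on opposite strands.

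Neutrophils also express these genes, so granulocyte markers were looked at. Their summed level over 12 genes was 41.8 to 58.5 CPM in CD33KO_shPTPN6, 49 to 98.3 in CD33KO_shCTRL, 27.9 to 39.4 in WT_shPTPN6 and 26 to 29.8 in WT_shCTRL. FCGR3B, CEACAM8 and MPO were at 0 in every CD33KO_shPTPN6 library and averaged at most 0.139 CPM elsewhere. AZU1, ELANE, PRTN3, CAMP, LTF and S100A12 averaged at most 5.62 CPM in any group. MMP8, a collagenase stored in neutrophil granules, made up most of the sum in the knockout, at 35.2 CPM in CD33KO_shPTPN6, 74.8 in CD33KO_shCTRL, 3.6 in WT_shPTPN6 and 3.48 in WT_shCTRL. CXCR2, a chemokine receptor, averaged 0.745, 0.439, 8.5 and 3.77 CPM in the same order, and CSF3R, the receptor of a granulocyte growth factor, 3.11, 2.72, 8.97 and 7.42 CPM. Both had their lowest mean in CD33KO_shCTRL and their highest in WT_shPTPN6, but neither was called with the hairpin in the knockout, unlike CYBB. Only AZU1 and MMP8 of this list were called there (log2 fold changes 1.30 and -1.10). AZU1 averaged 4.47, 1.74, 1.43 and 5.62 CPM in the same order of groups. Of the 6 granulocyte markers tested, 3 rose and 1 fell with the hairpin in wild type (median 0.72), 1 rose and 1 fell with it in the knockout (median 0.60), and 1 rose and 4 fell in CD33KO_shCTRL against WT_shCTRL (median -1.54). Of the macrophage and monocyte markers, all 9 tested rose with the hairpin in wild type (median log2 fold change 1.27) and 4 of 9 in the knockout, while 6 of 9 fell and 2 rose in CD33KO_shCTRL against WT_shCTRL. Of all tested genes, 30.2% rose and 30.4% fell with the hairpin in wild type, and 20.5% rose and 21.6% fell in the knockout. In CD33KO_shCTRL against WT_shCTRL 28.3% rose and 28.4% fell. The part of either marker list in the described levels was not tested. In bulk RNA, fewer cells that express a gene cannot be told apart from less RNA per cell. Lymphoid markers summed to 348.7 to 402.2, 615.2 to 703.7, 168.1 to 209.2 and 599.2 to 734.0 CPM in the same order, almost all from GNLY and TRAC. Markers of epithelial cells and of the virus-producing HEK-293FT line summed to 90.8 to 112.4, 104.9 to 139.9, 65.3 to 103.8 and 46.4 to 66.2 CPM. Most of this came from CDH1, CDH2 and, in wild type, INA, which averaged 0.343, 0.276, 6.03 and 17.4 CPM in the same order. The others of this list, EPCAM, KRT8, KRT18, KRT19 and NEFL, averaged at most 1.57 CPM in any group.

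**Figure D4:**
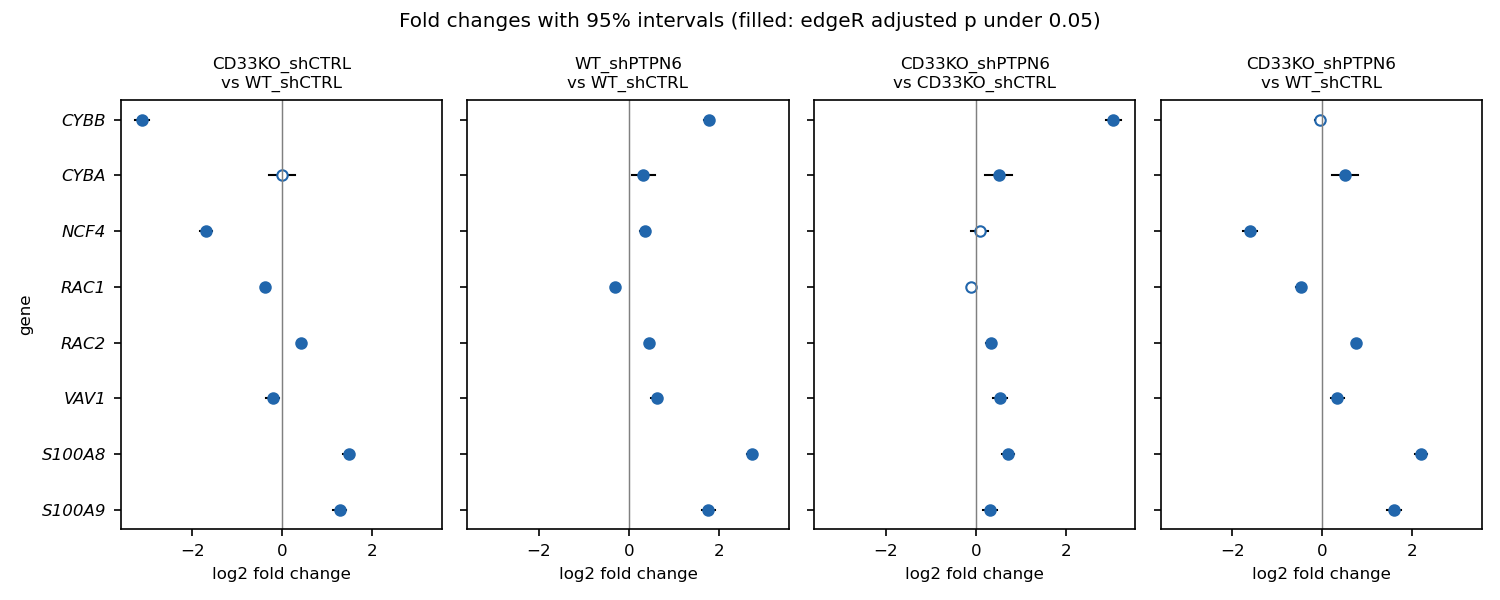
Log2 fold changes (x axis) of the 8 tested genes (rows) in 4 comparisons (panels) with 95% intervals; filled points passed an edgeR adjusted p of 0.05. CYBB lies at -3.11 in CD33KO_shCTRL against WT_shCTRL and at 3.05 in CD33KO_shPTPN6 against CD33KO_shCTRL, and RAC1 lies on the other side of 0 from RAC2.

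Whether the hairpin acted alike in both lines was tested as an interaction, its log2 fold change in the knockout less the one in wild type. It was called for 4 of the 8 genes, 2 positive and 2 negative, where 28.4% of all tested genes were called, 14.5% positive and 13.9% negative. On the log2 scale CYBB responded more in the knockout, 3.05 against 1.77 in wild type, a difference of 1.29 (SE 0.10, adjusted p = 1.23e-20). In CPM its rise was smaller in the knockout, from a mean of 20.2 to 165.6, against 173.0 to 589.1 in wild type. S100A8 responded less in the knockout, 0.72 against 2.73 in wild type (difference -2.02, SE 0.088, adjusted p = 2.01e-30), as did S100A9, 0.32 against 1.76 (difference -1.44, SE 0.10, adjusted p = 1.08e-12). RAC1 gave -0.097 in the knockout against -0.31 in wild type (difference 0.21, SE 0.068, adjusted p = 0.0116), which missed the threshold without a filter on low counts (adjusted p = 0.0836). NCF1C also responded less in the knockout, 1.27 against 2.77 in wild type (difference -1.50, SE 0.15, adjusted p = 5.46e-11). PTPN6 itself gave -2.37 in the knockout against -2.08 in wild type (difference -0.29, SE 0.22, edgeR adjusted p = 0.355). Between the hairpin groups PTPN6 was lower in the knockout (log2 difference -0.52, SE 0.19, edgeR adjusted p = 0.0166).

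The remaining described genes did not pass the interaction test. CYBA gave 0.19 (interval -0.20 to 0.59), RAC2 -0.13 (-0.26 to 0.0062) and VAV1 -0.077 (-0.28 to 0.13). NCF4 gave -0.27 (SE 0.11, adjusted p = 0.0524) and was close to the threshold. It passed without CD33KO_shPTPN6 replicate 5 (-0.36, adjusted p = 0.00936). With library totals alone, the stricter filter or DESeq2 the adjusted p was 0.0478, 0.0476 and 0.0486. It also passed without CD33KO_shCTRL replicate 2 or 5, WT_shPTPN6 replicate 1, 4, 5 or 6 or WT_shCTRL replicate 2, 3, 5 or 6 (-0.30 to -0.28, largest adjusted p 0.0482).

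**Figure D5:**
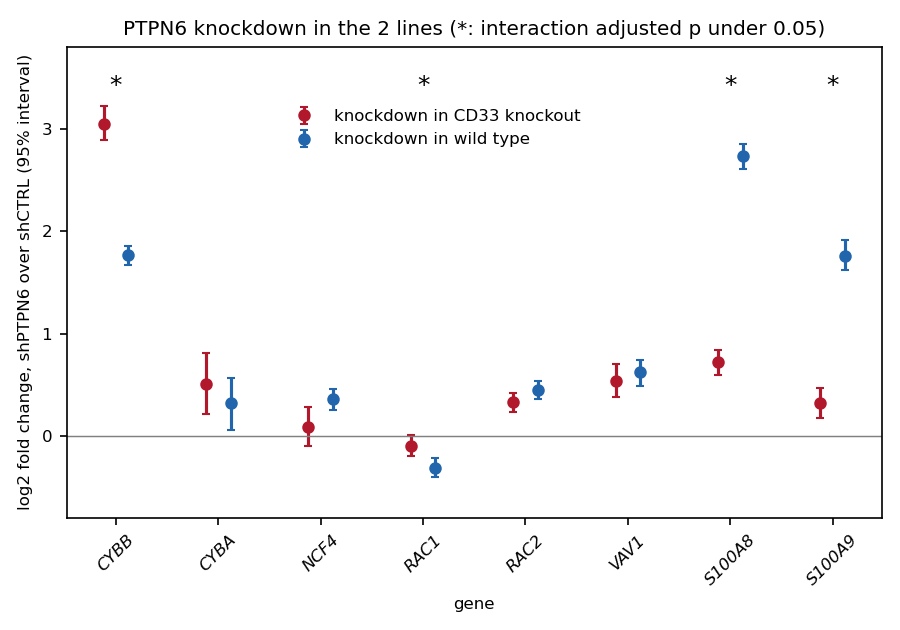
Log2 fold change of shPTPN6 over shCTRL (y axis) in the CD33 knockout (left point of each pair) and in wild type (right point) for the 8 tested genes (x axis), with 95% intervals; asterisks mark an interaction with an edgeR adjusted p under 0.05. The log2 fold change of CYBB is higher in the knockout (3.05 against 1.77), and those of S100A8 (0.72 against 2.73) and S100A9 (0.32 against 1.76) are lower.

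The receptor and the phosphatase were also set against each other directly. In CD33KO_shCTRL against WT_shPTPN6, 6 of the 8 genes were called, all lower, where 64.6% of all tested genes were called, 33.1% higher and 31.4% lower. For 5 of the 8 no library of one group reached into the range of the other, as for 41.9% of all genes. CYBB was 29.5-fold lower (log2 difference -4.88, SE 0.071, adjusted p = 7.19e-86), NCF4 4.15-fold lower (-2.05, adjusted p = 6.32e-51) and S100A8 2.4-fold lower (-1.26, adjusted p = 1.45e-30). RAC2 differed by -0.028 (interval -0.12 to 0.064) and RAC1 by -0.078 (interval -0.17 to 0.014). RAC1 passed the threshold without a filter (-0.16, adjusted p = 0.00577) and with DESeq2 (-0.09, adjusted p = 0.0445). It also passed without CD33KO_shCTRL replicate 2, 4 or 6 or WT_shPTPN6 replicate 4 or 5 (-0.11 to -0.10, adjusted p 0.0328 to 0.0472). In CD33KO_shPTPN6 against WT_shPTPN6, 7 were called, RAC2 higher and 6 lower, where 56.5% of all genes were called, 29% higher and 27.5% lower, and 5 did not overlap, where 37.2% of all genes did not.

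Other genes of the pathway are given by list, and their counts stand against the shares of all genes called in the same comparisons, given above. Of 14 other oxidase subunits and chaperones 5 were tested. With the hairpin 1 rose and 2 fell in the knockout (median -0.12), 1 rose and 3 fell in wild type (median -0.15), and 1 rose and 3 fell in CD33KO_shCTRL against WT_shCTRL (median -0.44). CYBC1, the chaperone needed for CYBB protein, rose with the hairpin by 0.22 (SE 0.089) in the knockout (adjusted p = 0.0324) and by 0.65 (SE 0.069) in wild type (adjusted p = 9.3e-15). HVCN1, the proton channel that balances the charge the oxidase moves, averaged 31.5 ± 2.53 CPM in CD33KO_shPTPN6, 26.3 ± 2.6 in CD33KO_shCTRL, 23.1 ± 3.42 in WT_shPTPN6 and 36.2 ± 2.78 in WT_shCTRL. It fell by 0.64 with the hairpin in wild type (adjusted p = 3.81e-09) and by 0.46 in the knockout with the empty vector (adjusted p = 6.73e-05). RAP1A, a small GTPase found with the core, fell by 0.44 in CD33KO_shCTRL against WT_shCTRL (adjusted p = 1.27e-14).

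Among 21 activators and assembly kinases, all tested, 4 rose and 11 fell in CD33KO_shCTRL against WT_shCTRL (median -0.21). With the hairpin 2 rose and 7 fell in the knockout (median 0.0092), and 8 rose and 7 fell in wild type (median 0.00078). PRKCD, a kinase that phosphorylates NCF1 protein, rose by 0.64 (SE 0.13) with the hairpin in the knockout (adjusted p = 0.000369). It averaged 190.5 CPM in CD33KO_shPTPN6, 121.3 in CD33KO_shCTRL, 178.2 in WT_shPTPN6 and 117.5 in WT_shCTRL, so it was also higher with the hairpin in wild type. PRKCB rose by 0.80 in CD33KO_shCTRL against WT_shCTRL (adjusted p = 9.05e-31). PIK3CG, a phosphoinositide kinase of leukocytes, fell with the hairpin by 1.18 in the knockout (adjusted p = 4.43e-13) and by 1.09 in wild type (adjusted p = 7.18e-20). LCP2 fell by 0.50 and 1.10 in the same comparisons (larger adjusted p = 1.84e-13), but rose by 0.79 in CD33KO_shCTRL against WT_shCTRL (adjusted p = 2.27e-28).

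Of 17 Rac exchange factors and inhibitors 15 were tested, and 1 rose and 9 fell in CD33KO_shCTRL against WT_shCTRL (median -0.34). With the hairpin 3 rose and 8 fell in the knockout, and 2 rose and 8 fell in wild type (medians -0.26 and -0.33). PREX1, a Rac exchange factor of myeloid cells, rose by 0.75 in the knockout (SE 0.088, adjusted p = 2.48e-12) and by 0.73 in wild type (SE 0.068, adjusted p = 1.84e-17), beside VAV1. VAV3 averaged 136.5 ± 14.1 CPM in CD33KO_shPTPN6, 123.3 ± 11.3 in CD33KO_shCTRL, 177.5 ± 9.23 in WT_shPTPN6 and 272.5 ± 10.5 in WT_shCTRL, and fell by 1.14 in CD33KO_shCTRL against WT_shCTRL (adjusted p = 7.83e-37). ARHGDIB, which holds Rac proteins inactive in the cytosol of blood cells, fell by 0.92 in that comparison (adjusted p = 1.25e-36) and was lower still, by a log2 difference of -0.34, in CD33KO_shPTPN6 against CD33KO_shCTRL (adjusted p = 1.09e-08). TIAM1, another exchange factor, averaged 3.32 CPM in CD33KO_shPTPN6, 8.24 in CD33KO_shCTRL, 6.62 in WT_shPTPN6 and 38.8 in WT_shCTRL.

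Genes that handle reactive oxygen (15 of 16 listed were found and 12 tested) held 9 that rose and 1 that fell with the hairpin in wild type (median 0.28), where 30.2% of all tested genes rose and 30.4% fell. In the knockout 3 rose and 2 fell with the hairpin (median 0.052), and 3 rose and 7 fell in CD33KO_shCTRL against WT_shCTRL (median -0.17). GPX1, a peroxidase that removes hydrogen peroxide, averaged 531.9 ± 10.7 CPM in CD33KO_shPTPN6, 272.1 ± 17.4 in CD33KO_shCTRL, 963.3 ± 19.3 in WT_shPTPN6 and 553.1 ± 51.6 in WT_shCTRL. Like CYBB, it was lowest in CD33KO_shCTRL and highest in WT_shPTPN6. PRDX6, a peroxiredoxin, fell by 0.67 with the hairpin in the knockout (adjusted p = 2.96e-24) and by 1.31 in wild type (adjusted p = 1e-50).

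The other S100 genes moved in both directions. Of 11 tested, 4 rose and 2 fell with the hairpin in the knockout, 3 rose and 6 fell with it in wild type, and 3 rose and 5 fell in CD33KO_shCTRL against WT_shCTRL (medians -0.088, -0.30 and -0.077). S100A4 averaged 1542.7 ± 112.0 CPM in CD33KO_shPTPN6, 1638.2 ± 130.5 in CD33KO_shCTRL, 2900.0 ± 102.7 in WT_shPTPN6 and 4978.9 ± 518.8 in WT_shCTRL, so it was highest where S100A8 and S100A9 were lowest. S100A10 fell by 2.71 in CD33KO_shCTRL against WT_shCTRL (adjusted p = 6.28e-72) and by 0.80 in WT_shPTPN6 against WT_shCTRL (adjusted p = 1.45e-31). S100A11 rose with the hairpin in both lines, by 0.50 in the knockout (adjusted p = 2.95e-15) and by 0.72 in wild type (adjusted p = 9.35e-28). S100A12, the third calgranulin of neutrophils and monocytes, reached 5.54 ± 2.08 CPM in WT_shPTPN6, against 1.53 ± 0.403 CPM in WT_shCTRL (log2 difference 1.88, adjusted p = 1.08e-08).

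Of 10 proposed receptors and binding partners of S100A8 and S100A9, all tested and CD33 among them, 5 rose and 3 fell in CD33KO_shCTRL against WT_shCTRL, and 7 rose and 1 fell with the hairpin in wild type (medians 0.25 and 0.41). With the hairpin in the knockout 2 rose and 1 fell (median 0.16). LY96, the co-receptor of TLR4, averaged 7.2 ± 1.67 CPM in CD33KO_shPTPN6, 5.13 ± 1.47 in CD33KO_shCTRL, 34.2 ± 3.04 in WT_shPTPN6 and 25.2 ± 1.48 in WT_shCTRL, lower in both knockout groups, as NCF4 was. CD36 and ALCAM went the other way, and rose by 1.68 and 1.75 in CD33KO_shCTRL against WT_shCTRL (larger adjusted p = 4.29e-54).

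Transcription factors known to act at the CYBB, NCF1, S100A8 and S100A9 genes moved in both directions. Of 17, all tested, 7 rose and 6 fell with the hairpin in the knockout (median 0.11), 9 rose and 5 fell with it in wild type (median 0.32), and 8 rose and 5 fell in CD33KO_shCTRL against WT_shCTRL (median -0.016). SPI1, which encodes PU.1, averaged 133.7 ± 8.91 CPM in CD33KO_shPTPN6, 56.9 ± 4.75 in CD33KO_shCTRL, 151.8 ± 9.89 in WT_shPTPN6 and 64.1 ± 7.72 in WT_shCTRL. It rose with the hairpin by 1.23 (SE 0.079) in the knockout and by 1.25 (SE 0.062) in wild type (larger adjusted p = 3.52e-27). IRF1, a factor induced by interferon, rose by 1.21 and 1.15 in the same comparisons (larger adjusted p = 2.54e-28). CEBPB, which encodes a C/EBP factor of macrophages, averaged 459.7 ± 16.3 CPM in CD33KO_shPTPN6, 349.4 ± 37.1 in CD33KO_shCTRL, 127.0 ± 9.4 in WT_shPTPN6 and 62.4 ± 5.15 in WT_shCTRL. CEBPA fell by 0.91 in CD33KO_shCTRL against WT_shCTRL (adjusted p = 2.14e-26). The part of these factors in the described levels was not tested.

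Genes with the most similar profile were found by the root-mean-square difference of centred log2 CPM over 23 libraries among 10894 genes. For CYBB the nearest were LINC01094, CD180, IGSF6, RNASE2 and SIGLEC16, at 0.605 to 0.725. These values exceed those of the nearest genes below, but the measure is not scaled for the size of a gene's changes. LINC01094, CD180, IGSF6 and SIGLEC16 averaged at most 2.95 CPM in CD33KO_shCTRL, where the prior count of 2 shrinks log2 differences. NCF4, at 1.21, ranked 128, the nearest of the described genes. For NCF4 they were TXNIP, RGS10, HDDC2, TUBA1A and CACNA2D4, at 0.151 to 0.215. For S100A8 they were MMP9, NRP1, GIMAP8, MYBPH and DCSTAMP, at 0.25 to 0.339, with S100A9 ranking 12 at 0.397. For S100A9 they were NT5E, MYBPH, LPXN, TDO2 and SMIM3, at 0.198 to 0.228, with S100A8 ranking 107 at the same 0.397. The 23 points are libraries of 4 groups, shared by all genes.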

How the data were processed

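The authors deposited 1 matrix of read counts by gene, without normalization. Per the labels' protocols, RNA (100 ng per library) was prepared with a kit that reads 3′ ends. Tools named, per the submitters' processing notes, were DESeq2 1.26.0, R 3.6.1, featureCounts, Subread 2.0.0, STAR 2.7.3a and bcl2fastq, with the build hg38. The annotation release, the strand setting and the treatment of duplicates and multiply mapped reads are not given in the sources used here. Without strand, reads of a gene and its antisense partner cannot be told apart, and the handling of multiply mapped reads sets how NCF1, NCF1B and NCF1C share counts.

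The labels give 24 samples, of which 23 entered the tests, since replicate 2 of CD33KO_shPTPN6 was not analysed here. Symbols were found for 60261 of 60617 identifiers. In R 4.3.3, genes were filtered by filterByExpr of edgeR 4.0.16 (13098 kept), scaled by TMM and fitted in 1 model of 4 group means (estimateDisp, robust glmQLFit). Each contrast used the edgeR quasi-likelihood test, with p adjusted by Benjamini-Hochberg over the tested genes and a threshold of 0.05. SEs were approximated from the fold change and its F statistic. Ratios used log2 of counts plus 0.5 and two-sided exact permutation tests, adjusted over 18. Likeness used log2 CPM with a prior count of 2.

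Positions and overlaps came from gencode release 29 and start windows from RefSeq, both GRCh38. All CD33KO_shPTPN6 libraries held fewer reads than any from wild type. Named genes were the 9, the NCF1 copies, CD33, PTPN6, and from each list up to 2 called genes per direction with the smallest adjusted p in the 4 comparisons of the fold-change plot, of which a part is printed. Some genes of these lists are not reported here and stay out of the lists' counts. Members and lists were chosen with earlier results of these data known. Alternatives were 2 other scalings, DESeq2 1.42.0, no filter or a stricter filter, the 2 groups alone, a replicate block, each library left out, the summed NCF1 copies, a ratio pseudocount of 5 and, added after the data were seen, thinning to the smallest library.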

Additional observations from a re-analysis of the deposited data

Results flagged for a closer look

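Over 48 sets of libraries (each gene or ratio in each group) 4 held a library far from the rest by Dixon's criterion, which chance gives in about 1 in 20 sets. CYBB stood at 26.1 CPM in CD33KO_shCTRL replicate 3, where the others of that group stood at 17.6 to 20.6, and the CYBB over CYBA ratio of the same library was 0.243, where the others had 0.134 to 0.169. NCF4 stood at 54.6 CPM in CD33KO_shPTPN6 replicate 5, where the others stood at 38.4 to 42.2. S100A8 stood at 350.7 CPM in CD33KO_shPTPN6 replicate 1, where the others stood at 298.9 to 312.0.

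The hairpin's effect differed between the lines, in the knockout minus wild type on the log2 scale with edgeR adjusted p, by 1.29 for CYBB (1.23e-20), 0.21 for RAC1 (0.0116), -2.02 for S100A8 (2.01e-30), -1.44 for S100A9 (1.08e-12) and -1.50 for NCF1C (5.46e-11). All had at least 5 libraries a group.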

How the results depend on the processing

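The number of the 8 tested genes called moved by at most 1 in each of the 7 comparisons under the alternatives run. No count of calls over all genes left 1.5 times its value, and none of the signs of CYBB, NCF4, RAC1, RAC2, VAV1, S100A8 or S100A9 turned. CYBA in CD33KO_shCTRL against WT_shCTRL, uncalled at -0.012, turned to 0.0027 with the replicate block and to 0.013 to 0.053 without CD33KO_shCTRL replicate 3 or 6 or WT_shCTRL replicate 4 or 6, with -0.09 to 0.053 over all libraries left out. Leaving out 1 library moved the S100A8 over S100A9 log2 ratio in that comparison over 0.13 to 0.25, and the RAC2 over RAC1 ratio of CD33KO_shCTRL against WT_shPTPN6 over 0.028 to 0.074. With the block, S100A9 in CD33KO_shPTPN6 against WT_shPTPN6 gave -0.18 (edgeR adjusted p = 0.0508); it changed no other call of a described gene. The numbers did not pair the libraries: over 33 pairs with 1 number, deviations from the group means correlated at -0.0493 to 0.0324, and 3 libraries of 23 correlated best with their own number.

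Library totals alone left 1999 genes higher and 3623 lower in CD33KO_shPTPN6 against CD33KO_shCTRL (2685 and 2827 with TMM), and 3209 higher and 5258 lower in CD33KO_shPTPN6 against WT_shCTRL (4204 and 4152). With them RAC1 fell in CD33KO_shPTPN6 against CD33KO_shCTRL (-0.18, adjusted p = 0.00133), as with the stricter filter (-0.13, adjusted p = 0.0301). The cause was not tested. CYBA in CD33KO_shCTRL against WT_shPTPN6 (-0.33) missed the threshold with library totals or without CD33KO_shCTRL replicate 3, 5 or 6 or WT_shPTPN6 replicate 4 or 6 (adjusted p 0.0517 to 0.0775). Reads were few for NCF1, with 5 over all WT_shCTRL libraries, and for CYBB in CD33KO_shCTRL, with 39 to 66 a library. WT_shCTRL libraries were not shallow (4170191 to 5700712 reads), and the split of reads between NCF1 and its copies is uncertain.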
